A study of Mus musculus with 4 samples.

Results

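Chemokine ligand and chemokine receptor genes were examined in RNA sequencing of whole mouse testis. Members were all rows of the count table whose symbol begins with Ccl, Cxcl, Cx3cl or Xcl, or with Ccr, Cxcr, Cx3cr, Xcr or Ackr, followed by a digit, leaving out opposite-strand, Rik and pseudogene symbols. This gave 61 of 49492 rows: 38 ligands, 19 signalling receptors and 4 atypical receptors, with 2 pseudogene rows dropped. By the labels, the 4 libraries came from testes of male C57BL/6J mice that had all received LPS (lipopolysaccharide, a product of bacterial outer membranes sensed by innate immune cells), 2 with a knockdown of Spry1 (shSpry1) and 2 wild type with a control hairpin (shControl). The labels give no age, dose, time after LPS, delivery of the hairpin or targeted cell type, and do not state whether replicates are separate animals, so p-values measure only how far these samples spread, which may be technical.

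In the count table, 2 columns carry the heading LPS and 2 the heading NC. The LPS columns were taken for the Spry1 knockdown and the NC columns for the control hairpin, although LPS occurs in all 4 sample titles and the counts had been seen by then. Should the headings mean LPS against no LPS, each difference below belongs to that contrast, and the sources used here do not settle it. The groups are therefore called LPS columns and NC columns, with 2 libraries each, and positive log2 fold changes are those with more in the LPS columns. The Spry1 gene itself, targeted by the knockdown, had 26 and 17 counts in the LPS libraries and 45 and 41 in the NC columns (log2 fold change -0.82 ± 0.28 SE; edgeR's quasi-likelihood test, Benjamini-Hochberg adjusted p = 0.0212). That call was lost with DESeq2 and without LPS replicate 2, NC replicate 1 or NC replicate 2, and the adjusted p from edgeR, limma-voom or DESeq2 ranged from 0.0150 to 0.249 over the alternatives.

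Libraries held 17612342 to 22451132 counts, so that a count of 0 allows up to 0.134 to 0.170 CPM (counts per 1000000 library counts, taking 3 counts as the floor). The tissue label was checked against defining markers: germ cell markers summed to 4778 and 4260 CPM in the LPS columns and 5294 and 5409 CPM in the NC columns, and each of the 5 Sertoli and 4 Leydig cell markers was detected well enough to be tested. Leydig cell markers summed to 322 and 362 CPM in the LPS columns, against 658 and 690 CPM in the NC columns; Cyp17a1, Star and Hsd3b1 fell, while Insl3 was not called, at 196 and 205 CPM against 200 and 222 CPM. Of 7 germ cell markers, 4 (Ddx4, Acr, Tnp1 and Prm1) were called lower and 1 (Stra8) higher. Tnp1 alone was at 2991 and 2530 CPM in the LPS columns and 3166 and 3216 CPM in the NC columns. Of the 5 Sertoli cell markers, 2 (Sox9 and Cldn11) were called higher and 0 lower. In whole tissue, fewer cells of a type and less RNA per cell cannot be told apart.

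Chemokines are small secreted proteins that guide leukocyte movement and are classed by the spacing of their first cysteines into CC, CXC, CX3C and XC families. They act through G protein-coupled receptors on the responding cell, while the atypical receptors (Ackr) bind chemokines without G protein signalling and remove or redistribute them. Inflammatory members are induced by NF-kB, interferons and bacterial products in macrophages, endothelium and stroma, and homeostatic members are made constitutively to place cells within tissues. The testis holds resident macrophages in its interstitium and few other leukocytes in the healthy state.

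Ligand genes were mostly higher in the LPS columns and receptor genes were not. Of 61 members, 4 had 0 counts in every library and 30 passed the filter on low counts, which asks for about 0.497 CPM in at least 2 libraries. Of these 30, 14 were called higher, which is 46.7% against 15.2% of all 20855 genes tested, and 4 were called lower, which is 13.3% against 16.3% of all genes tested. Over all genes 3169 were higher and 3394 lower, and with library size as the sole scaling these became 4207 and 2579. All 14 that rose were ligands, out of 20 ligands tested, while 2 ligands fell and 4 were not called. Among 8 signalling receptors tested, 0 rose, 2 fell and 6 were not called, and neither of the 2 atypical receptors tested was called. The median log2 fold change of the tested members was 0.57, against 0.00 over all tested genes; it was 1.45 for ligands and -0.15 for signalling receptors, also with Ccl24, at 0 counts in one group, set to its bound.

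The filter shapes these counts. Of the 30 tested members, 17 reached the filter level in both groups, and 5 of these rose, 3 fell and 9 were not called. A further 10 reached it only in the LPS columns, among them 9 of the 14 that rose, and 2 only in the NC columns. Members that passed through 1 group only were kept by their level in that group, so that counts of calls among them carry no weight of their own. Both LPS libraries lay above both NC libraries in 17 of the 30, which is 56.7% against 32.1% of all tested genes, and below in 8, which is 26.7% against 32% of all tested genes. These shares carry the same limit. The 17 include the 9 risers kept only by their LPS level, and the 8 include the 2 members kept only by their NC level. The 27 members that were detected but not tested had 1 to 31 counts in all. With no filter on low counts, Ccl7, Cxcl10 and Ccr9 were called higher among these 27 and 0 were called lower, beside 0.739% higher and 0.846% lower among all 14067 genes that the filter leaves out.

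**Figure D1:**
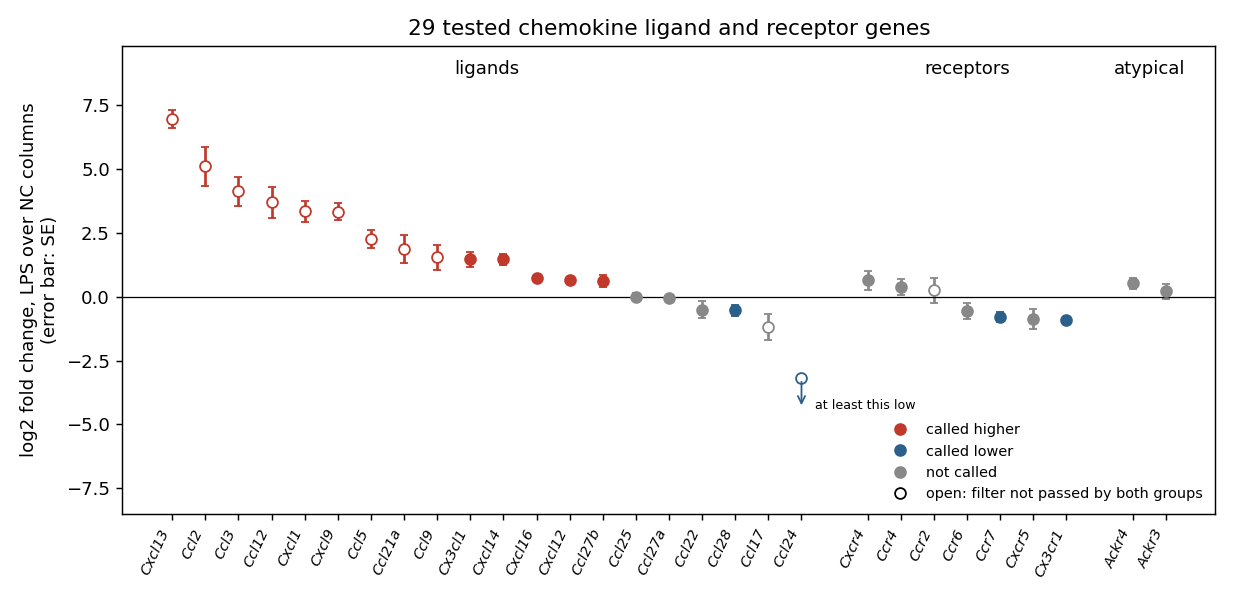
Log2 fold change of 29 tested members, LPS over NC columns, with SE bars, for ligands, receptors and atypical receptors in order of size. Open symbols did not reach the filter level in both groups, and Ccl24, at 0 in the LPS columns, is drawn at its bound of -3.19; the called rises are all on the ligand side.

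Among ligands of Ccr2, the receptor that brings inflammatory monocytes into tissue, Ccl2 and Ccl12 rose. Ccl2, the best known monocyte attractant, had 24 and 14 counts in the LPS libraries and 0 and 1 in the NC columns, a ratio of 43.0 (counting interval 7.27 to 1743). Ccl12, a close mouse relative of Ccl2, had 21 and 16 counts against 2 and 1 for NC, a ratio of 14.0 (counting interval 4.42 to 70.8). The NC counts were near 0 in both genes, and the fitted log2 fold change of Ccl2 (5.09 ± 0.75 SE) became 4.21 when NC replicate 1 was left out and 7.34 when NC replicate 2 was. Ccl7, which also binds Ccr2, had 14 and 6 counts in the LPS libraries and 1 and 0 in the NC columns, a ratio of 22.6 (interval 3.62 to 938), too few to be tested. Ccr2 itself was not called, with 11 and 9 counts in the LPS libraries and 5 and 14 in the NC columns (log2 fold change 0.25 ± 0.49). The NC libraries enclosed the LPS libraries, and at this depth the interval of the fold is wide. Ccl8, a ligand of Ccr8 in mouse, and Ccl11, an eosinophil attractant, had at most 3 counts in any library.

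Among ligands of Ccr1, a receptor of monocytes and macrophages, Ccl3, Ccl5 and Ccl9 rose, all of them tested only through their level in the LPS columns, and the others had too few counts to be tested. Ccl3 had 25 and 25 counts in the LPS libraries and 1 and 2 in the NC columns, a ratio of 18.9 (counting interval 6.09 to 94.6). Its neighbour Ccl4 had 4 and 3 counts against 1 and 0 and was not tested (ratio 7.92, interval 1.02 to 357). Ccl5, made by T cells, macrophages and endothelium, was at 1.98 and 1.62 CPM in the LPS columns and 0.318 and 0.439 CPM in the NC columns (log2 fold change 2.25 ± 0.36; edgeR, Benjamini-Hochberg adjusted p = 7.35e-06). Both LPS libraries of Ccl5 lay well above both NC libraries. Ccl9, a macrophage product in mouse, was at 0.558 and 0.840 CPM in the LPS columns and 0.227 and 0.244 CPM in the NC columns (1.53 ± 0.50). The Ccl9 call was lost with DESeq2 and without LPS replicate 2, NC replicate 1 or NC replicate 2, over adjusted p-values of 0.0105 to 0.245 (edgeR, limma-voom or DESeq2).

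Ccr1 itself had too few counts to be tested. It had 0 and 1 counts in the LPS libraries and 7 and 3 in the NC columns, a ratio of 0.113 (counting interval 0.00261 to 0.796). Ccl6, another Ccr1 ligand of mouse, had 1 and 0 counts against 2 and 4, and the Ccr1 relative Ccr1l1 had 1 count in all.

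Cxcl1 rose among the ligands of Cxcr2, the receptor that draws neutrophils. Cxcl1 was at 2.03 and 1.85 CPM in the LPS columns and 0.182 and 0.195 CPM in the NC columns, or 1.94 ± 0.128 CPM against 0.188 ± 0.0093 CPM (SD, n = 2 per group; log2 fold change 3.33 ± 0.41; edgeR, Benjamini-Hochberg adjusted p = 5.05e-08). The 2 groups were far apart and each pair of libraries was close. Cxcl2, from the adjacent locus, had 4 and 2 counts in the LPS libraries and 0 in both NC libraries, which with 3 counts per group as the floor makes it at least 2.26-fold higher, and was not tested. Cxcl3 had 0 counts in all 4 libraries, and Cxcl5 had 3 and 1 counts against 7 and 4. Cxcl15, known from lung, was also at 0 throughout. The receptors were barely detected: Cxcr2 had 2 and 3 counts in the LPS libraries and 1 and 0 in the NC columns, and Cxcr1 had 1 and 1 against 0 and 4. The neutrophil marker S100a9 had 35 and 32 counts in the LPS libraries and 0 in both NC libraries, whereas Ly6g, a defining neutrophil antigen, went undetected in the LPS columns and had 4 and 6 counts in NC. Over all 11 neutrophil markers, 3 were tested and 2 of these rose, and the list summed to 4.31 and 4.76 CPM in the LPS columns and 1.73 and 2 CPM in the NC columns; its part in the chemokine values was not tested.

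Cxcl1, Cxcl2 and Cxcl3 carry the same NF-kB motif just before their starts, and these 3 stretches are shown because the genes share the site but not the level. Each line gives the 150 bases before the RefSeq start (GRCm38.p6, plus strand, 5′ to 3′), with matches to the NF-kB consensus in capitals, which overlap and run together, the search covering both strands.
Cxcl1 (chr5:90891095-90891244): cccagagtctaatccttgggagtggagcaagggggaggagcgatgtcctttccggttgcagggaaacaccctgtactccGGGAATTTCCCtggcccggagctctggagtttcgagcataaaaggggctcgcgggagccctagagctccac
Cxcl2 (chr5:90903749-90903898): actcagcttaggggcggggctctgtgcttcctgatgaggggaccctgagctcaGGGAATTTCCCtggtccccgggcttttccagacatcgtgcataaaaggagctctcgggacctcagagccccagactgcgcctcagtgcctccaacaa
Cxcl3 (chr5:90785951-90786100): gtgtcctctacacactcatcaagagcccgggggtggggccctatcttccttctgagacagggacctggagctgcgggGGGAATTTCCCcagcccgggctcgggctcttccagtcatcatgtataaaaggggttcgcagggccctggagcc
The longest run shared by all 3 is the 11-base motif itself, and Cxcl1 and Cxcl2 share 14 bases there. Beside this common site, Cxcl1 had 73 counts over the LPS columns, Cxcl2 had 6 and Cxcl3 had 0.

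Cxcl9, one of the interferon-induced ligands of Cxcr3, a receptor of activated T and NK cells, rose. Cxcl9 was at 2.99 and 4.70 CPM in the LPS columns and 0.500 and 0.244 CPM in the NC columns (log2 fold change 3.32 ± 0.33; 3.94 without NC replicate 1). Cxcl10 had 7 and 11 counts in the LPS libraries and 1 and 0 in the NC columns, a ratio of 20.4 (counting interval 3.22 to 849), and Cxcl11 had 4 and 8 counts against 5 and 0. The order Cxcl9, Cxcl10, Cxcl11 in the LPS columns also held per length, at 1.28, 0.216 and 0.0858 FPKM (CPM per kilobase of gene length). Cxcr3 had 0 counts in all libraries. GENCODE types Cxcl11 as a polymorphic pseudogene, and it was kept among the ligands because the rule goes by symbol. Cxcl11 also shares 41.7% of its exonic bases with the opposite-strand gene model Gm2673. The strand setting of the counting is not given in the sources used here, so the counts of Cxcl11 are uncertain. The interferon gene Ifng was at 0 in every library.

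Cxcl13, the ligand of Cxcr5 that gathers B cells, had the highest fold of the 30 tested members. Cxcl13 (ENSMUSG00000023078.6, chr5:95956951-95961068 in mm10) had 159 and 191 counts in the LPS libraries and 1 and 2 in the NC columns, a ratio of 132 (counting interval 44.8 to 643). Mean levels were 9.38 ± 1.86 CPM in the LPS columns and 0.0715 ± 0.0368 CPM in the NC columns (SD over 2 libraries each), and edgeR's Benjamini-Hochberg adjusted p was 2.95e-18. By level per length in the LPS columns it reached 8.16 FPKM, above every other tested member except Ccl27a. Cxcr5 went the other way without being called, at 0.609 and 0.504 CPM in the LPS columns and 1.14 and 0.926 CPM in the NC columns (log2 fold change -0.88 ± 0.38; edgeR, Benjamini-Hochberg adjusted p = 0.0740). Of 7 B cell markers, 3 were tested, 0 rose and 1, Ighm, fell, tested only through its level in the NC columns. The list summed to 24.6 and 26.1 CPM in the LPS columns and 29.5 and 30 CPM in the NC columns. Pax5 alone was at 23.2 and 25 CPM against 27.4 and 28.2 CPM, so the sum says little about the other markers. Untested Ms4a1 had 4 and 6 counts in the LPS libraries against 4 and 1. Cd79a, Cd79b and Jchain, also untested, had at most 2 counts in any library.

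The 250 bases before the start of Cxcl13 are set beside those of Cxcl10 (GRCm38.p6, 5′ to 3′), since both genes were near 0 in the NC columns and they differ in motif content. Capitals mark matches to the NF-kB consensus, the interferon-response core (TTTC, any 2 bases, TTTC) or the STAT-binding motif TTCNNNGAA, on either strand.
Cxcl10 (chr5:92348890-92349139, minus strand): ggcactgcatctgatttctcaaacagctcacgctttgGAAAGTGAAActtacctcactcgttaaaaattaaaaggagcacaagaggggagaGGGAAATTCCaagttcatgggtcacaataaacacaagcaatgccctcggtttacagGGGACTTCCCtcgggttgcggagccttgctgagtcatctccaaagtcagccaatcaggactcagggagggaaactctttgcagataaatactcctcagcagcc
Cxcl13 (chr5:95956689-95956938, plus strand): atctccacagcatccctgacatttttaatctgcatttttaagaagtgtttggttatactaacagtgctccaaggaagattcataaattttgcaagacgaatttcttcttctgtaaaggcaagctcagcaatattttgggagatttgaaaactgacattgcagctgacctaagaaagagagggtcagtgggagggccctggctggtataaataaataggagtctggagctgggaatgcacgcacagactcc
Cxcl10 holds 2 NF-kB matches and 1 interferon-response match, and Cxcl13 holds none of the 3 motifs in this window, which says only that these letters are not there.

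Over all members, RefSeq windows from 250 bases before to 50 after the start were found by symbol for 46 of 61. An NF-kB match was present for 10 of these 46 genes, against 5.1% of all 27025 symbols with a window; the interferon-response core was present for 3, against 4.0%, and TTCNNNGAA for 4, against 9.6%. Among the 11 members called higher that had a window, 2 (Cxcl1 and Ccl9) held an NF-kB match, as did 2 of 10 not called and 6 of 23 not tested.

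Ccr7 and its ligands, which bring dendritic cells and naive T cells to lymphoid tissue, split. The ligand Ccl21a had 10 and 16 counts in the LPS libraries and 2 and 6 in the NC columns (log2 fold change 1.85 ± 0.55). That call was lost with DESeq2, without LPS replicate 2 and without NC replicate 1, where the fold change was 1.23, and it was 2.85 without NC replicate 2; the adjusted p from edgeR, limma-voom or DESeq2 ranged from 0.00266 to 0.177. Ccl21a has near-identical copies, of which Ccl21b had 1 count in all, so its reads could be split between them. Ccl19, the other Ccr7 ligand, had 3 and 2 counts against 1 and 1. Ccr7 (ENSMUSG00000037944.8, chr11:99144196-99155077) fell, to 2.28 and 2.30 CPM in the LPS columns, against 3.91 and 4.09 CPM in the NC columns (log2 fold change -0.80 ± 0.20; edgeR, Benjamini-Hochberg adjusted p = 0.00199, lost with DESeq2, range over alternatives 0.000687 to 0.0741). Replicates differed far less than the groups. T and NK cell markers summed to 6.70 and 6.72 CPM in the LPS columns and 9.86 and 9.60 CPM in the NC columns. Of 4 tested, 2 (Cd8b1 and Cd2) were lower. Dendritic cell markers summed to 16.0 and 14.8 CPM against 18.7 and 19.9 CPM, with 2 of 3 tested (Flt3 and Zbtb46) lower. Zbtb46 alone was at 14.7 and 13.1 CPM against 16.4 and 17.6 CPM, so this sum mostly follows 1 gene. The third, Itgax, was not called, at 0.659 and 0.56 CPM against 0.545 and 0.292 CPM. Ncr1 and Cd209a were at 0. Whether these cells account for Ccr7 was not tested.

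Cx3cl1 and Cx3cr1 moved in opposite directions. Cx3cl1, a membrane-bound chemokine of endothelium and other tissue cells, was at 2.08 and 2.46 CPM in the LPS columns and 0.818 and 0.828 CPM in the NC columns (log2 fold change 1.45 ± 0.29; edgeR, Benjamini-Hochberg adjusted p = 0.000136). Its receptor Cx3cr1 (ENSMUSG00000052336.7, chr9:119901616-120069879), carried by monocytes and tissue macrophages, fell to 5.68 and 5.04 CPM in the LPS columns, against 9.95 and 10.2 CPM in the NC columns (-0.91 ± 0.13; edgeR, Benjamini-Hochberg adjusted p = 1.54e-06). In both genes the groups were clearly apart, and both calls held under all 11 alternatives.

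Other macrophage genes moved both ways. Of 13 macrophage and monocyte markers, 11 were tested: Csf1r, Mrc1 and Cd163 fell, while Adgre1, Itgam, Cd14, Fcgr1, C1qa and Mertk rose. The list summed to 62.5 and 67.4 CPM in the LPS columns and 46.6 and 50.7 CPM in the NC columns, with 0 members at 0 throughout. Cd68 and Folr2 were tested and not called. Of the untested markers, Ly6c2, a marker of inflammatory monocytes, had 9 and 5 counts in the LPS libraries against 1 and 0. Lyve1 went the other way, with 2 and 1 counts in the LPS libraries against 10 and 8 in the NC columns. The part of these cells in the chemokine values was not tested.

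**Figure D2:**
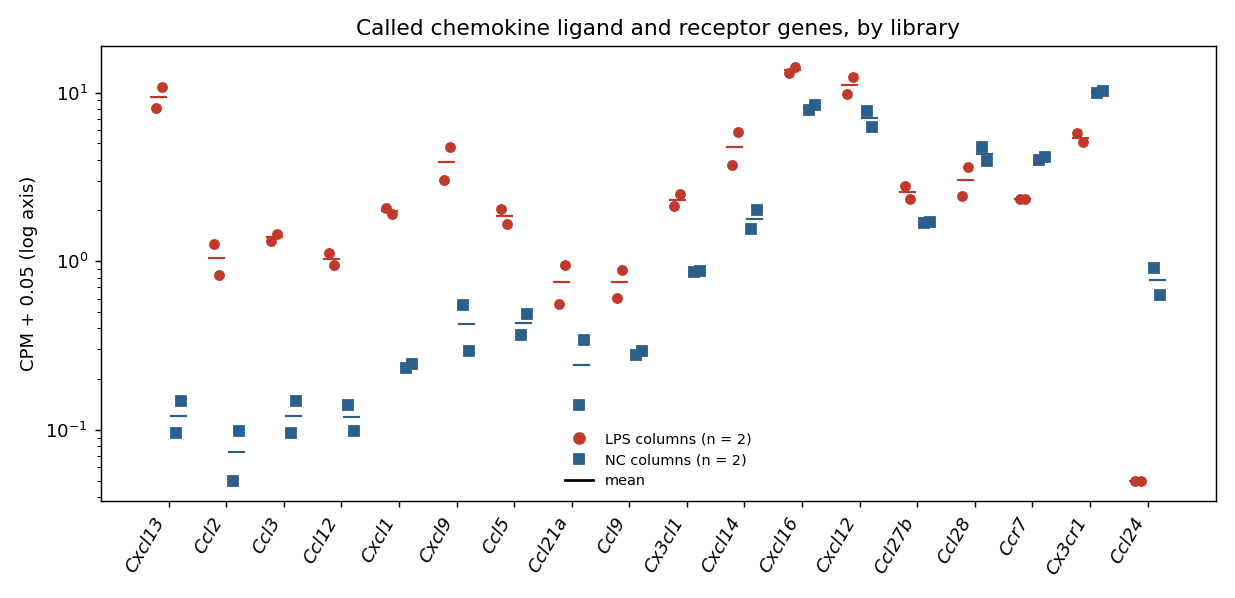
CPM plus 0.05 (log axis) in each library for the 18 called members, LPS columns left of NC columns, with lines at the group means. Cxcl13 sits at 8.07 and 10.7 CPM in the LPS columns and under 0.1 CPM in the NC columns, while Cxcl16, Cxcl12 and Ccl27b differ by less than 2-fold.

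Cxcl12, Cxcl14 and Cxcl16, ligands of epithelium, stroma and macrophages, rose. Cxcl12, which retains Cxcr4-bearing cells in tissue, was at 9.79 and 12.3 CPM in the LPS columns and 7.77 and 6.24 CPM in the NC columns (log2 fold change 0.65 ± 0.13). Cxcl14, an epithelial and stromal chemokine, was at 3.65 and 5.82 CPM against 1.5 and 1.95 CPM in the NC columns (1.45 ± 0.23). Cxcl16, a scavenger receptor for oxidised lipid as well as the ligand of Cxcr6, was at 13 and 14.2 CPM in the LPS columns and 7.82 and 8.43 CPM in the NC columns (0.74 ± 0.12). The groups did not overlap in any of these 3 genes, and the 3 calls held under all 11 alternatives. Cxcl16 shares 18.3% of its exonic bases with the opposite-strand gene Zmynd15, which had a higher level (113 ± 5.12 CPM against 129 ± 3.55 CPM in the NC columns, SD, n = 2 per group) and fell, so its counts are uncertain.

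Their receptors were not called or not tested. Cxcr4 was at 1.17 and 0.784 CPM in the LPS columns and 0.636 and 0.633 CPM in the NC columns (log2 fold change 0.63 ± 0.37; edgeR, Benjamini-Hochberg adjusted p = 0.212). Both LPS libraries were the higher ones, but the LPS replicates differed from each other by as much as the groups did. Cxcr6 had 1 and 7 counts in the LPS libraries and 2 and 4 in the NC columns. Ackr3, a scavenging receptor for Cxcl12, was at 1.78 and 1.06 CPM against 1.18 and 1.32 CPM, with overlapping groups.

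Ccl27a stood far above the rest by level and was not called. Ccl27a, a skin chemokine that is the ligand of Ccr10, was at 134 and 107 CPM in the LPS columns and 129 and 121 CPM in the NC columns, and took 58.7% to 77.5% of all ligand counts in a library. Per length it averaged 51.8 FPKM over the 4 libraries, 10.6 times the next member, Ccl27b, at 4.90 FPKM. The Ccl27a log2 fold change was -0.05 ± 0.07 and not called, with the groups overlapping, but without LPS replicate 1 it was -0.22 and called lower, and its sign changed under 3 other alternatives. Its near-identical copy Ccl27b was at 2.74 and 2.30 CPM in the LPS columns and 1.64 and 1.66 CPM in the NC columns (0.62 ± 0.24; edgeR, Benjamini-Hochberg adjusted p = 0.0460). That call was lost with DESeq2, limma-voom and without LPS replicate 1, NC replicate 1 or NC replicate 2 (range of adjusted p 0.0284 to 0.349), and reads of the copies may be shared.

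The other mucosal ligands showed 1 fall. Ccl28, an epithelial ligand of Ccr10 and Ccr3, was at 2.38 and 3.58 CPM in the LPS columns and 4.68 and 3.90 CPM in the NC columns (log2 fold change -0.54 ± 0.20; edgeR, Benjamini-Hochberg adjusted p = 0.0362). The Ccl28 call was lost with DESeq2, with library size as the only scaling, and without LPS replicate 1 or NC replicate 1 (range of adjusted p 0.00443 to 0.428). Ccl25, the thymic and gut ligand of Ccr9, was level at 8.27 and 7.56 CPM in the LPS columns and 8 and 7.8 CPM in the NC columns (0.00 ± 0.13). Ccr9 had 15 and 8 counts against 3 and 5 and was not tested; it shares 18.8% of its exonic bases with the opposite-strand gene model Gm17021, so it too is uncertain. Ccr10 had 3 and 1 counts against 3 and 3, and Cxcl17, another mucosal chemokine, at most 3 in any library.

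**Figure D3:**
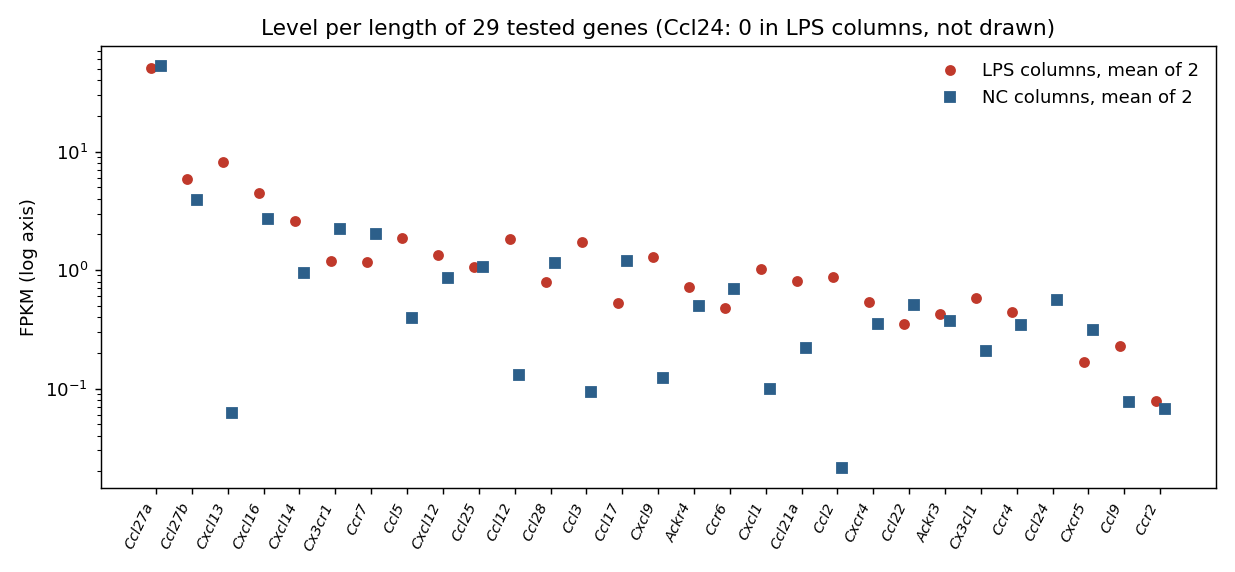
Mean level per length (FPKM, log axis) of 29 tested members in the LPS columns and the NC columns, ordered by the mean over all 4 libraries. Ccl27a leads at 50.8 and 52.7 FPKM, and Cxcl13 spans 8.16 to 0.0621 FPKM; Ccl24 has no LPS point because it is listed at 0 there.

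Among ligands known from type 2 responses, Ccl24 fell, Ccl17 and Ccl22 were not called, and Ccl11 and Ccl26 had too few counts to be tested. Ccl24 (chr5:135569937-135573049), an eosinophil attractant made by alternatively activated macrophages, had 0 counts in each LPS library against 19 and 12 in the NC libraries, which makes it at least 9.13-fold lower (edgeR, Benjamini-Hochberg adjusted p = 7.93e-06). Ccl17 had 4 and 6 counts in the LPS libraries and 12 and 14 in the NC columns (log2 fold change -1.18 ± 0.51; edgeR, Benjamini-Hochberg adjusted p = 0.0736). The groups did not overlap in Ccl17, but the test did not call it. Ccl22 had 20 and 11 counts against 24 and 26 and was not called either. Ccr4, the receptor of Ccl17 and Ccl22 on regulatory and helper T cells, was at 1.37 and 1.34 CPM in the LPS columns and 0.863 and 1.27 CPM in the NC columns and not called. Ccr3, the eosinophil receptor for Ccl24 and Ccl11, had 2 counts in all, both in NC replicate 2, and Ccl26 had 1 count. Ccl1 and its receptor Ccr8 had at most 4 counts in a library. Of 3 eosinophil markers none was tested, and they summed to 0.304 and 0.616 CPM in the LPS columns and 0.454 and 0.536 CPM in the NC columns.

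The remaining receptors showed no called change. Ccr6, whose ligand Ccl20 had 0 counts in every library, was at 0.812 and 1.12 CPM in the LPS columns and 1.32 and 1.51 CPM in the NC columns (log2 fold change -0.55 ± 0.31; edgeR, Benjamini-Hochberg adjusted p = 0.186). Xcr1, the receptor of cross-presenting dendritic cells, had 2 and 2 counts against 9 and 6, and its ligand Xcl1 had 1 and 3 against 2 and 1. Among atypical receptors, Ackr4, which scavenges Ccl19, Ccl21 and Ccl25, had 70 and 72 counts in the LPS libraries and 69 and 43 in the NC columns (0.52 ± 0.21; edgeR, Benjamini-Hochberg adjusted p = 0.0509). Ackr4 passed the threshold under 7 of 11 alternatives (range of adjusted p 0.0101 to 0.451). Ackr2, a scavenger of inflammatory CC chemokines, had 3 and 2 counts against 4 and 9, and Ackr1, the chemokine carrier of venules and red cells, had 1 count in all, in LPS replicate 2.

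Ligands and receptors were also set against each other in pairs. Textbook pairings gave 42 ligand-receptor pairs, of which 11 had both genes tested, covering 10 ligands and 8 receptors that recur between pairs. The pairings left out Ackr4. Ackr4 was not called, at a log2 fold change of 0.52, while its ligand Ccl21a rose, and both passed the threshold with limma-voom. In 0 of the 11 were both higher and in 0 both lower, which the separate calls had already fixed. No tested receptor was called higher, and the ligands called lower, Ccl24 and Ccl28, had no tested receptor. In 2 of the 11 the ligand rose while the receptor fell: Cx3cl1 with Cx3cr1 and Ccl21a with Ccr7. In the other 9 the receptor was not called. Summed over members, all 38 ligands reached 200 and 183 CPM in the LPS columns and 167 and 157 CPM in the NC columns, ligands other than Ccl27a 65.3 and 75.4 CPM in the LPS columns and 37.4 and 35.8 CPM in the NC columns, and signalling receptors 14.6 and 13.3 CPM in the LPS columns and 19.4 and 21.3 CPM in the NC columns.

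**Figure D4:**
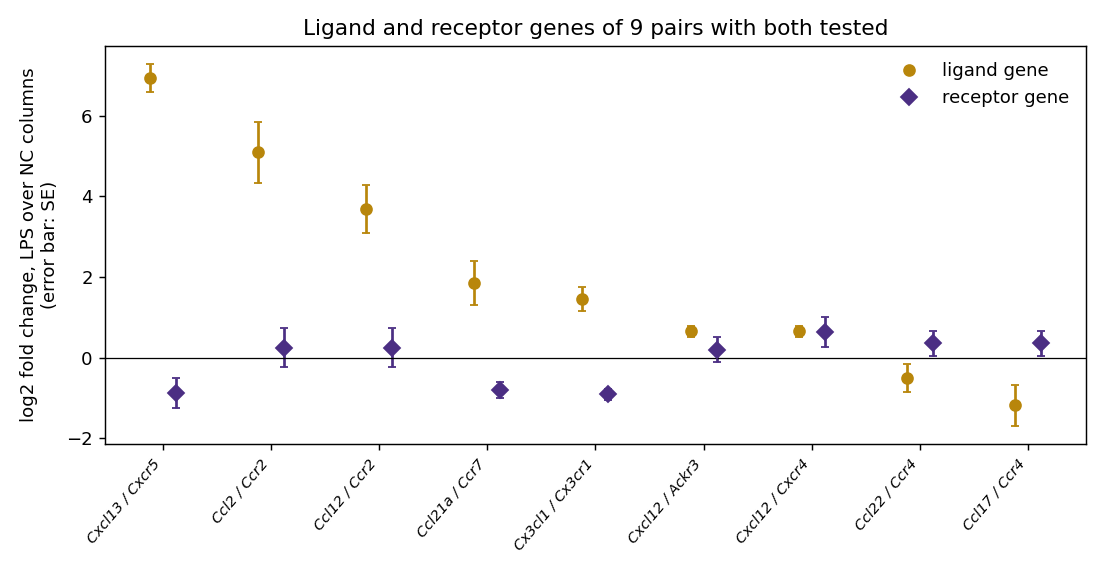
Log2 fold change (LPS over NC columns, SE bars) of the ligand and the receptor gene in 9 of the pairs with both tested, ordered by the ligand. Ligand values run from 6.93 (Cxcl13) to -1.18 (Ccl17), while receptor values stay between -0.91 (Cx3cr1) and 0.63 (Cxcr4).

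Many members lie in gene clusters, a property that the selection did not use. Members less than 200 kb apart formed 10 clusters with 39 members. The chromosome 11 clusters (chr11:82035571-82305690 and chr11:83525778-83664683, mm10) hold 11 ligands, of which Ccl2, Ccl12, Ccl5, Ccl9 and Ccl3 rose. These 5 were tested only through their level in the LPS columns, so their common direction is fixed by the filter. Their untested neighbours had few counts and went both ways, with 20 counts of Ccl7 over the LPS columns and 1 over the NC columns, but 1 of Ccl6 over the LPS columns and 6 over the NC columns. The 66.4 kb cluster on chromosome 8 (chr8:94745590-94812036) was mixed, with Cx3cl1 higher between Ccl22 and Ccl17, which were not called and had negative fold changes. The receptor cluster on chromosome 9 (chr9:123678439-124147699) holds 8 members, of which only 2 were tested, Ccr2 among them, and 0 of these rose or fell. Its untested members included Ccr9, called higher with no filter on low counts. They also included Ccr1, with 1 count over the LPS columns and 10 over the NC columns.

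Genes that act around the chemokines were taken from a list of 58, of which 46 were tested; 19 rose, 6 fell and 21 were not called, beside 15.2% higher and 16.3% lower over all genes tested. Among 9 tested inducers of chemokine genes, 7 rose and 0 fell. Tnf, a cytokine that induces many of the ligands, had 14 and 13 reads in the LPS libraries and none in the NC libraries, which makes it at least 10.2-fold higher. Nfkb2 rose by 1.34 ± 0.16, Relb by 0.74 ± 0.17 and Irf1, a factor for Cxcl9 and Cxcl10, by 1.35 ± 0.18 on the log2 scale. Among 28 genes of signalling below the receptors, 10 rose, 4 fell and 14 were not called. Ncf1, a subunit of the phagocyte oxidase, rose by 1.22 ± 0.21, while Plcb2 fell by 0.63 ± 0.11 and Arrb1, an arrestin that desensitises receptors, fell by 0.54 ± 0.12. Rgs2, a terminator of G protein signals, rose by 1.42 ± 0.13, and it was 1 of 2 tested among 7 such genes. Among 7 tested chemoattractant genes outside the naming rule, Rarres2 (chemerin) rose by 0.60 ± 0.11, while its receptor gene Cmklr1 fell by 0.51 ± 0.08 and the platelet chemokine gene Pf4 fell by 1.45 ± 0.40.

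Markers of vessels and stroma, which make several of the ligands, also differed. Of 8 endothelial markers, 7 were tested, 3 rose (Cdh5, Tek and Eng) and 1 fell (Vwf), with a sum of 27.2 and 31.1 CPM in the LPS columns and 29.5 and 23.2 CPM in the NC columns. Of 3 lymphatic endothelial markers, Prox1 and Pdpn rose, and Pdpn, also a gene of lymphoid stroma, rose by 3.18 ± 0.23. Prox1 was at 34.2 and 34.9 CPM in the LPS columns and 21.7 and 20.2 CPM in the NC columns. The endothelial marker Pecam1 was far lower, at 1.67 and 2.35 CPM against 1.55 and 1.66 CPM. Prox1 is therefore not read as a measure of lymphatic vessels here, and which cells carry it was not tested. The third, Flt4, was not called, at 6.24 and 7.28 CPM in the LPS columns and 8.68 and 8.14 CPM in the NC columns. All 3 fibroblast markers and both peritubular myoid markers rose, with sums of 65.6 and 72.7 CPM against 49.8 and 45.5 CPM, and of 280 and 283 CPM against 182 and 195 CPM in the NC columns. Of 3 erythroid markers 1, Alas2, fell. Their part in the chemokine values was not tested.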

How the data were processed

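RNA from whole testis was extracted with TRIzol and made into stranded mRNA libraries, per the labels' protocols. The authors deposited 1 table of unnormalised counts by gene, with gene lengths, laid out as featureCounts writes it, per the file headers. The submitters' processing notes name build mm10, DESeq, edgeR 3.12.1, STAR 2.5.3a, Trimmomatic 0.36 and featureCounts with Subread 1.5.1, without roles. Neither the annotation release nor the strand setting is given in the sources used here, so overlapping and duplicated genes are uncertain. Counts were filtered with filterByExpr (minimum count 10), scaled by TMM and compared with the quasi-likelihood test of edgeR 4.0.16 over all genes, with Benjamini-Hochberg adjustment and a threshold of 0.05; SE values follow from its F statistic. CPM and FPKM use TMM-scaled library sizes. Ratios with 1 to 3 counts in a group carry exact binomial 95% intervals, which cover counting error only. DESeq2 1.42.0, limma 3.58.1 (voom), other scalings and filters, left-out libraries and a replicate block were alternatives. The fit was tested on simulated data. Replicate counts differed beyond sampling noise (chi-square per degree of freedom 2.41 and 2.33). GENCODE M21 (GRCm38) gave gene identifiers for 58 members, and promoter windows are from RefSeq (GRCm38.p6). The members, lists and pairings were chosen with earlier results of these data known. Values are given in full for called members, their receptors, members at 0 in a group with at least 10 counts in the other, and a few fixed genes. No batch is labelled. A few genes enter the counts but are not reported here.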

Additional observations from a re-analysis of the deposited data

How the results depend on the processing

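Of the 18 called members, 13 kept their call and direction under all 11 alternatives run, and 5 (Ccl21a, Ccl9, Ccl27b, Ccl28 and Ccr7) lost the call under at least 1; 0 changed sign. The number of members called higher, 14, ranged from 12 to 14 without single libraries and was 11 with DESeq2 and 18 with no filter on low counts. The number called lower, 4, ranged from 3 to 4 without single libraries and was 2 with DESeq2. DESeq2 also gave 1454 genes higher and 1845 lower over the whole table, against 3169 and 3394 with edgeR, and the cause was not tested. Scaling by library size alone gave 4207 higher and 2579 lower genes, with a shift of the all-gene median to 0.066 (log2). Spry1 lost its call with DESeq2 (log2 fold change -0.83) and without some single libraries (range -1.08 to -0.61). Signs also changed, in members outside the 18: leaving out single libraries gave -0.23 to 0.51 for Ackr3, -0.06 to 0.07 for Ccl25, -0.22 to 0.10 for Ccl27a and -0.35 to 1.21 for Ccr2, and Ccl27a was 0.01 with library size only. Single-library fits assume that the lone library varies like the other group. With the replicate number as a block, 15 members were higher and 4 lower, and 3376 and 3594 genes over the table; Spry1 stayed at -0.82. Same-numbered libraries deviated from their group means with a correlation of 0.0155 across genes. That gives no sign that the numbers pair the samples, but with 2 libraries per group it cannot exclude pairing. Depth limits the 31 members not tested, and with 2 libraries per group a gene's spread was estimated mainly from other genes.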
